A study of Ulva lactuca with 7 samples.

Results

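Thalli of the green seaweed Ulva lactuca that had been dried for 24 h were compared with thalli that always stayed in seawater. The comparison rests on 2 of the 7 libraries of the series, chosen by their treatment labels, with 1 library a side. Both sets of thalli were taken into the laboratory and acclimatised there first. The dried set was kept at 20% moisture for 24 h and the control set was submerged throughout. This control carries a title that starts with 24, like the 24 h drying samples, which its treatment label does not explain, and the group was taken from the treatment label. The labels give no strain, age, number of thalli or sampling time for either set, and RNA came from whole thalli. The other 5 libraries, dried for 36 or 72 h or put back into seawater for 1 h after 24, 36 or 72 h of drying, serve below only to place these 2. With 1 library of each treatment the spread between like libraries is unknown. Each ratio is therefore a description of 2 libraries, and no test was made and no p-value computed.

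Ulva grows as a thin sheet on shores where the tide leaves it dry. Drying concentrates salts in the cell, slows carbon fixation while light is still absorbed, and so favours the formation of reactive oxygen species. Algae and plants that survive it are known for antioxidant enzymes, chaperones, compatible solutes and repair of the photosynthetic membranes. Which of the transcripts measured here serve these tasks is not given, because the tables used here pair no assembled transcript with a gene name or product. Transcripts are therefore named by their assembly identifiers and grouped by level, base composition, length and isoform. The identity of the tissue could not be checked against marker genes for the same reason.

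The dried library held 97270080 read counts and the control 64315136, over 137594 transcripts in 90206 assembled genes, where an assembled gene is a set of isoforms that share an identifier up to the isoform number. These totals are 2.56 and 2.69 times the read totals that the deposited FPKM values imply, as would be the case if a read were counted on several isoforms. The counting program is not named, so this reading was not tested. Transcripts with a mean of 10 or more counts over the 7 libraries numbered 66046, in 22319 genes, and took 99.9% of the counts of each library. Levels are given as CPM, the count relative to the library size, after scaling by trimmed means. Values per gene use the transcript with the highest summed count.

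The transcripts described first are those with the largest gains and losses in CPM among genes at least 4-fold apart under 2 scalings, trimmed means and total counts, so larger losses or gains of genes under 4-fold are not covered. The largest gain was that of c34767_g1_i1, a transcript of 1195 nt with 37.9% GC and no isoform. It had 641461 counts in the control and 4504130 after 24 h of drying. Over the other libraries it had 2893294 and 733712 counts after 36 and 72 h of drying, and 755857, 591825 and 731526 counts after 1 h back in water from 24, 36 and 72 h. The 24 h library was thus the highest of the 7, the 36 h library came next, and the remaining 5 lay close together. In CPM the step from control to 24 h was from 9275 to 56662, a ratio of 6.11 (exact 95% counting interval 6.09 to 6.13). Per length the deposited FPKM went from 22425 to 99359. With 1 transcript per gene counted, this single transcript made up 3.12% of the control library and 13.3% of the 24 h library, against 2.09 to 3.72% in the 72 h dried and the 3 resubmerged libraries and 10.05% in the 36 h dried library. The ratio was 4.64 with scaling by total counts, and 3.98, just under 4-fold, once a trend on GC content was removed.

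The next largest gain of this kind was that of c27893_g2_i1 (1668 nt, 34.8% GC), also without an isoform. The control had 46831 counts of it, against 835007 after 24 h, 272216 after 36 h and 67213 after 72 h of drying, and 68905, 33704 and 52123 counts in the libraries resubmerged after these periods. Again the 24 h library was the highest and the 36 h library the second highest. Its level was 677 CPM in the control and 10504 CPM after 24 h, a ratio of 15.5 (95% counting interval 15.4 to 15.7). With a trend on GC content removed the ratio was 10.1.

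The largest loss of this kind was that of c16710_g1_i1 (1549 nt, 53.8% GC). It went from 265914 counts in the control to 75 after 24 h of drying, so that the control was 4075-fold above the dried library (95% counting interval 3251 to 5181). Levels were 3845 and 0.943 CPM. The other libraries fell into separate ranges, with 121 and 31 counts after 36 and 72 h of drying and 41 after resubmergence from 24 h, but 407263 and 467766 after resubmergence from 36 and 72 h. The transcript was therefore close to absent in 4 libraries and abundant in 3, and this split does not follow drying against water.

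The second largest loss of this kind, c33399_g1_i1 (739 nt, 57.9% GC), went from 81427 counts in the control to 14658 after 24 h, which put the control 6.38-fold higher (95% counting interval 6.27 to 6.50). It had 15393 and 20034 counts after 36 and 72 h of drying. Resubmergence from 24, 36 and 72 h gave 90529, 45622 and 66472 counts. All 3 dried libraries were lower than the control and the 3 resubmerged ones. The counting intervals of these 4 transcripts hold the counting error alone. PCR copies were not told apart from molecules, and how far thalli of the same treatment differ is not known from 1 library.

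**Figure D1:**
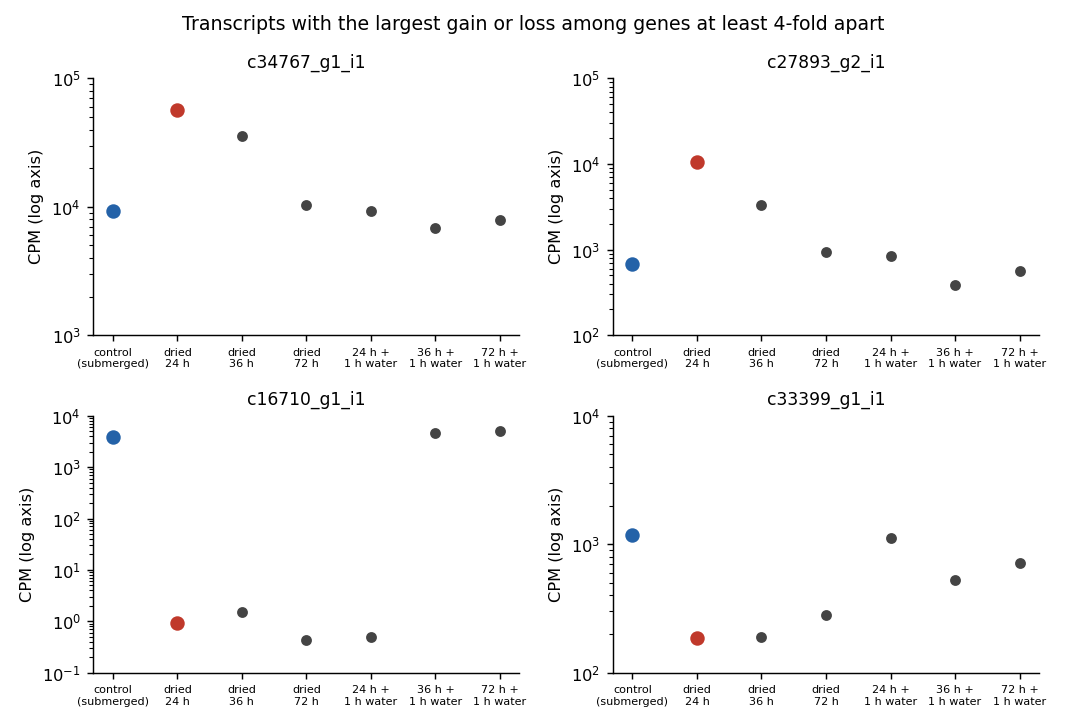
Level in CPM (log axis) of the transcripts with the largest gains (top) and losses (bottom), among genes at least 4-fold apart, between the control (blue) and the library dried for 24 h (red), with the other 5 libraries in grey, each point being 1 library. Both gains peak at 24 h, and c16710_g1_i1 lies at 0.437 to 1.49 CPM in 4 libraries and at 3845 to 5030.1 CPM in 3.

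Counted over transcripts, 6470 were at least 4-fold higher after 24 h of drying (9.80% of those compared) and 4282 at least 4-fold lower (6.48%). The former belong to 3258 assembled genes and the latter to 1815. With 1 transcript per gene, 2849 genes were at least 4-fold higher (12.8%) and 1520 lower (6.81%). More distant were the 696 genes at least 16-fold higher and 376 at least 16-fold lower, and the 161 and 91 genes at least 64-fold apart. On the other hand 12814 genes, 57.4%, were within 2-fold of the control, and the quartiles of the log2 ratio over all genes were -0.59 and 1.04. These 12814 include 617 genes with 0 counts in both libraries, which passed the filter through other libraries and have a log2 ratio of 0. With counting error considered, 1696 genes had a 95% counting interval wholly beyond 4-fold higher and 1031 wholly beyond 4-fold lower.

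The balance of higher and lower depends on the scaling. With scaling by total counts, 4825 transcripts were higher and 5998 lower, so that the higher side went from 60.2% to 44.6% of those set apart. Over genes the split moved from 65.2% to 52.4% higher (2227 against 2021). The deposited FPKM values, which are also relative to library totals, gave 42.6% over transcripts (4499 against 6053) and 50.4% over genes (2056 against 2027). The median log2 ratio of all transcripts was 0.10 under trimmed means and -0.24 under total counts, and changes below are to be read against that shift. Total counts of the dried library were 1.51 times those of the control, while the scaled library size was 1.15 times.

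**Figure D2:**
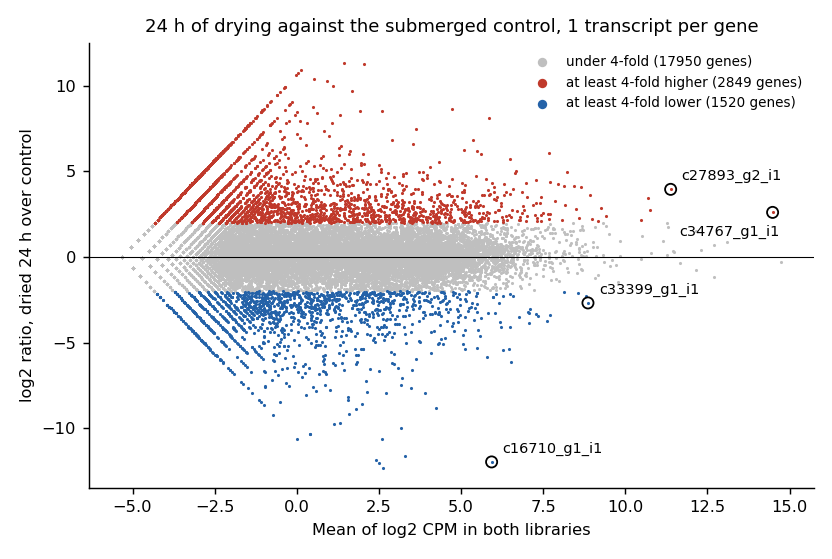
Log2 ratio of the 24 h dried library over the control (vertical) against the mean log2 CPM of both (horizontal), each point being 1 of 22319 genes given by its main transcript. Red points are the 2849 genes at least 4-fold higher, blue points the 1520 at least 4-fold lower, and rings mark the 4 named transcripts.

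Counts were more concentrated in few genes in the dried library than in the other libraries. With 1 transcript per gene counted, the 100 genes with the most counts, ranked in each library by itself, took 55.1% of the counts of the dried library. They took 46.2% of the control and 37.8 to 49.9% of the other libraries. On the same basis c34767_g1_i1 alone held 13.3% of the dried library and 3.12% of the control. The difference between these libraries in the share of the 100 genes was smaller than the difference in that transcript alone. Over all transcripts compared, and not 1 per gene, those at least 4-fold higher held 25.8% of the dried library (Wilson 95% interval 25.78 to 25.80). They held 4.44% of the control (4.43 to 4.44). Transcripts at least 4-fold lower held 0.872% of the dried library (0.870 to 0.874) and 11.1% of the control (11.08 to 11.10). If reads are counted on several isoforms, these counts are not independent and the intervals are too narrow. The transcripts were also chosen by these same libraries. Summed over genes under trimmed means, the gains came to 206217 CPM, of which c34767_g1_i1 alone made 23.0%, and the losses to -77247 CPM. The excess of gains depends on the scaling. The dried library has 1.15 times the size of the control under trimmed means and 1.51 times by total counts. Total counts would thus make the gains smaller and the losses larger, and these sums were not made with them.

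Among the 20 genes with the largest gains, taken from those at least 4-fold apart under both scalings, the median level was 90.1 CPM in the control and 1522 CPM after 24 h. In the other dried libraries it was 559.9 and 291 CPM after 36 and 72 h. After resubmergence from 24, 36 and 72 h it stood at 486, 73.9 and 167 CPM. They were chosen for a high level at 24 h. For 19 of the 20 the 24 h library was the highest of the 7, against 41.3% of all 2849 higher genes. The control was the lowest for 6 of the 20, against 66.9% of all higher genes. Ratios of the 20 ran from 5.33 to 280.3. The 20 genes with the largest losses had medians of 539.5 CPM in the control and 39.5 after 24 h. They had 57.1 and 60.1 CPM after 36 and 72 h of drying, and 49.0, 374 and 224 CPM after resubmergence from 24, 36 and 72 h. For 10 of these 20 the 24 h library was the lowest of the 7 and for 12 the control was the highest. Among all 1520 lower genes these shares were 47.0% and 53.2%, so the 20 lay near them. The median of the losses was low in all dried libraries and in the one resubmerged from 24 h.

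Genes of low GC content took part in the gains beyond their number. The 306 genes under 40% GC are 1.37% of the genes compared, and 6 of the 20 largest gains were among them, against 1 of the 20 largest losses. Large changes in CPM need a high level in at least 1 library. Of the 219 genes with a mean level (geometric, over both libraries) of 128 CPM or more, 17 were under 40% GC. With only 1 transcript per gene counted, the share of counts of the 306 genes was 7.01% in the control (Wilson 95% interval 7.002 to 7.024). It was 23.8% after 24 h (23.81 to 23.84). In the other dried libraries it was 15.5% after 36 h and 6.30% after 72 h. After resubmergence it was 5.12, 4.28 and 5.78% from 24, 36 and 72 h. Leaving out c34767_g1_i1, the share was 4.02% in the control and 12.2% after 24 h, with 2.24 to 6.05% in the other 5 libraries. The 24 h library was the highest with and without that transcript.

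**Figure D3:**
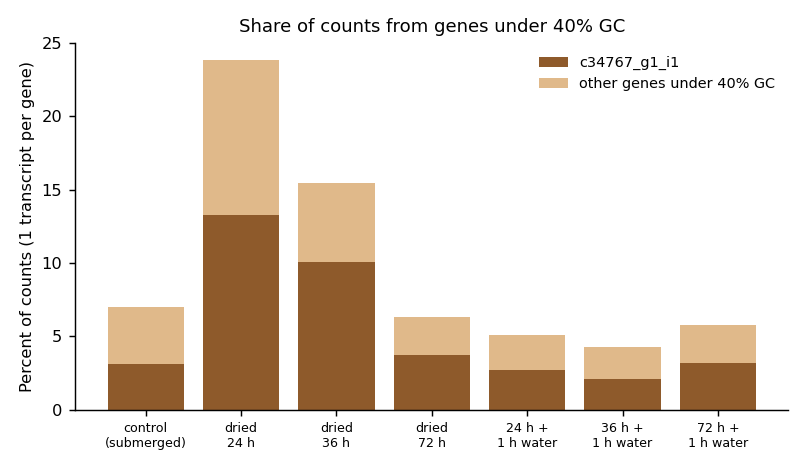
Percent of the counts of each library (1 transcript per gene) from the 306 genes under 40% GC, with the part of c34767_g1_i1 in dark brown. The stack reaches 23.8% in the library dried for 24 h and 7.01% in the control.

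Within this low-GC group the genes did not all move the same way. At least 4-fold higher were 65 (21.2%) and lower 31 (10.1%), with 142 within 2-fold, against 12.8%, 6.81% and 57.4% of all genes. The class within 2-fold includes genes with 0 counts in both libraries, whose log2 ratio is 0 by construction. These were 12 of the 133 genes under 35% GC and 42 of the 173 of 35 to 40% GC, against 617 of all 22319 genes. Total-count scaling gave 50 higher and 33 lower in the low-GC group. The median log2 ratio was 0.53, or 0.18 under total counts. The 17 of them with a mean level (geometric, over both libraries) of 128 CPM or more had 9 higher, 0 lower and 3 within 2-fold of the control, with log2 ratios of 0.09 to 4.18 and a median of 2.28. Of all 219 genes at that level, 17.4% were higher and 5.48% lower. Under total counts 7 of the 17 were at least 4-fold higher.

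From 45% GC upward the median ratio was lower in each richer band, while the bands below did not follow this order. Genes of 45 to 50% GC had a median log2 ratio of 0.65, with 27.8% at least 4-fold higher and 4.11% lower. Of the 739 higher genes of this band, 244 had 0 counts in the control. A counting interval wholly beyond 4-fold higher or lower was held by 16.4% and 2.75% of the band. Total counts gave 23.7% higher and 5.35% lower. At 50 to 55% GC the median was 0.34, with 11.6% higher and 4.32% lower. At 60 to 65% GC it was -0.09, with 8.36% higher and 9.46% lower. The 275 genes of 70% GC or more had a median of -0.58, with 1.45% higher and 17.5% lower. Total-count scaling lowered the medians of these bands to 0.32, -0.02, -0.46 and -0.90, so that only the order of the bands, and not the sign at 50 to 55%, holds under both. The slope was -0.53 in log2 ratio per 10 points of GC over transcripts and over genes alike.

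The slope was seen at every level. Genes under 0.5 CPM had -0.60, those of 0.5 to 8 CPM -0.41 and those above 8 CPM -0.39 per 10 points of GC. Set against the median of the other 5 libraries, the 24 h dried library had a slope of -0.66 and the control one of -0.13 over genes, so the trend was steeper in the dried library. Above 8 CPM the same slopes were -0.84 and -0.45. Averaged over counts with 1 transcript per gene, GC content was 50.8% in the 24 h dried library, the lowest of the 7, 54.6% in the control and 52.6 to 56.2% in the other libraries.

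**Figure D4:**
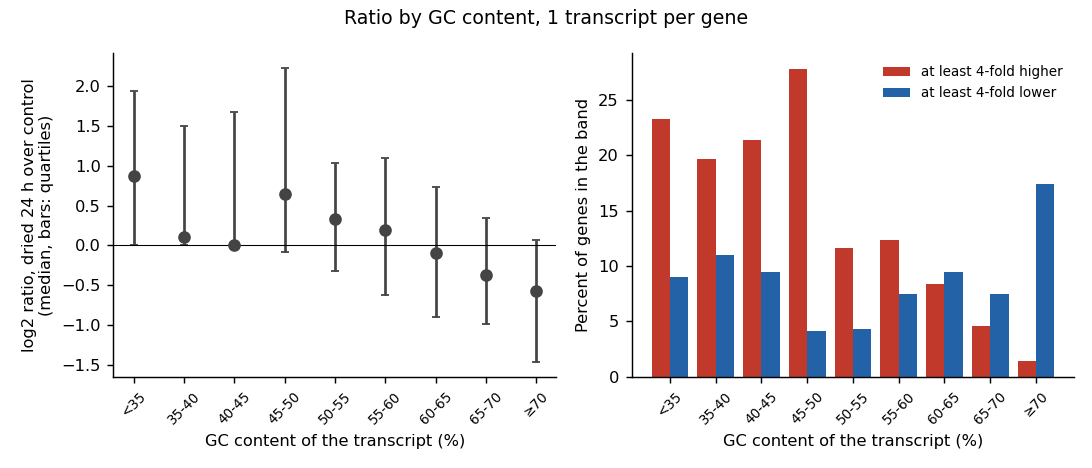
Left, median log2 ratio of the 24 h dried library over the control, with bars for the quartiles, in bands of GC content (1 transcript per gene). Right, percent of the genes of each band at least 4-fold higher (red) or lower (blue), from 27.8% higher at 45 to 50% GC to 1.45% higher at 70% GC or more. Counting error is not considered in these percentages.

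Bands of 35 to 40 and 40 to 45% GC had medians of 0.11 and 0.00, below that of the 45 to 50% band. In the band of 40 to 45% GC, 47.2% of the 958 genes had 0 counts in the control and 39.0% had 0 counts after 24 h, against 3.93% and 0.874% at 50 to 55% GC. In this band 33.8% of the genes had 0 counts in both libraries and passed the filter through other libraries, and such genes have a ratio of 0 on the log2 scale.

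Level and length also went with the share set apart. Of the 219 genes with a geometric mean of 128 CPM or more, 17.4% were at least 4-fold higher and 5.48% lower, against 6.42% and 4.06% of the 3255 genes of 8 to 32 CPM, where total counts turned the order to 4.15% higher and 6.70% lower. Genes of 0.125 to 0.5 CPM had 17.4% higher and 8.64% lower, but there counting error is large, and 10.4% and 5.40% had an interval wholly beyond 4-fold. For the 219 most abundant, the shares beyond counting error stayed at 17.4% and 5.48%. With total counts 12.8% of them were higher and 5.94% lower. Genes with a transcript of 500 to 1000 nt had 17.8% higher and 7.97% lower (14.1% and 10.1% with total counts). Those of 4000 to 8000 nt had 5.76% higher and 4.96% lower, an order that total counts turned to 3.97% and 8.22%. The bands differed less beyond counting error. Intervals wholly beyond 4-fold higher or lower were held by 9.18% and 4.95% at 500 to 1000 nt. At 4000 to 8000 nt they were held by 5.01% and 3.87%.

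Of the 20 most abundant genes of the control, 15 were also among the 20 most abundant of the dried library. Of these 20, 12 were within 2-fold, 1 was at least 4-fold higher and 2 lower, where 57.4%, 12.8% and 6.81% of all genes fell in these classes. They took 33.4% of the counts of the control and 35.6% after drying, with 1 transcript per gene counted. The 20 most abundant genes of the dried library had 10 within 2-fold, 5 at least 4-fold higher and 0 lower. Each list was chosen by the level in 1 of the libraries compared, which tilts its ratios toward that library.

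Detection in only 1 of both libraries was more common on the dried side. With 1 transcript per gene, 647 of the 2849 higher genes had 0 counts in the control, and 197 of these had 50 or more counts after 24 h. Conversely 114 of the 1520 lower genes had 0 counts after 24 h, and 37 of these had 50 or more in the control. A count of 0 allows up to 3 counts, which is 0.0434 CPM in the control and 0.0377 CPM in the dried library. The control is also the shallower library, so a gene near this limit has a higher chance of being listed at 0 there.

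Isoforms of a gene mostly had like ratios. Of 10455 genes with 2 or more transcripts compared, 79.0% had all transcripts on the same side of the control, and in 79.9% the highest and lowest ratio of the gene were within 2-fold of each other. In 780 genes all isoforms were at least 4-fold higher and in 530 all were at least 4-fold lower. A gene with an isoform at least 4-fold higher and another at least 4-fold lower was found 36 times (0.344%). Isoforms may share reads here. In 75.3% of these genes the counts of the leading 2 transcripts were within 20% of each other, so their ratios may not be independent. The 11864 genes with a single transcript compared had 15.4% higher and 6.80% lower, against 9.75% and 6.82% of the genes with several. The former are shorter, with a median of 858 nt against 2257 nt.

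The other 5 libraries show which side of the comparison stood apart. The 2849 higher genes had a median level of 0.0578 CPM in the control and 1.07 CPM after 24 h. Their medians were 0.455 and 0.692 CPM after 36 and 72 h of drying and 0.541, 0.402 and 0.409 CPM after resubmergence from 24, 36 and 72 h. The control thus lay below all 6 other libraries, and the 24 h library above the rest. The 1520 lower genes had medians of 2.17 CPM in the control and 0.164 CPM after 24 h. They had 0.320 and 0.699 CPM after 36 and 72 h, and 0.283, 1.70 and 0.828 CPM after resubmergence from 24, 36 and 72 h. Here the library resubmerged after 36 h came nearest to the control. All these values share the control and 24 h libraries by which the genes were selected, which puts those 2 at the ends in part.

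**Figure D5:**
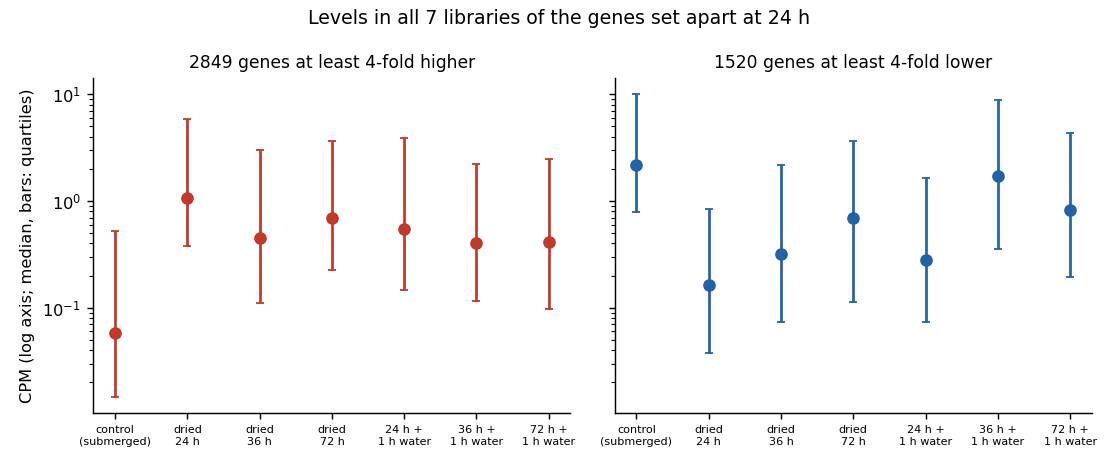
Median level in CPM (log axis), with bars for the quartiles over genes, of the 2849 genes at least 4-fold higher (left) and the 1520 at least 4-fold lower (right) after 24 h of drying, in each of the 7 libraries. The higher genes have their lowest median, 0.0578 CPM, in the control, and the lower genes their lowest, 0.164 CPM, after 24 h of drying.

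Gene by gene, the level was set against the median of the 5 other libraries. Of the higher genes, 1113 (39.1%) had a control at least 4-fold below that median while the 24 h library was less than 2-fold above it. The reverse, a 24 h library at least 4-fold above the median and a control less than 2-fold below it, held for 477 (16.7%). A further 800 (28.1%) had both libraries at least 2-fold away on opposite sides. Of the lower genes, 403 (26.5%) were set apart by the control in this sense, 304 (20.0%) by the 24 h library and 533 (35.1%) by both. With total counts the lower genes turned to 427 by the control (21.1%) and 477 by the 24 h library (23.6%), while the higher genes kept their order with 1032 (46.3%) and 307 (13.8%). Since the 5 other libraries had all been dried, a control that stands alone and a lasting effect of drying cannot be told apart. In whole thalli, fewer cells of a kind and less RNA per cell cannot be told apart either.

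The authors' deposited table of this pair gives p-values for 1 library against 1 and treats 112651 transcripts, those with a count in at least 1 of the libraries. Its calls, taken here as the authors' deposited table gives them with adjusted p-values under 0.05, are 358 transcripts higher after 24 h (0.318%) in 130 genes and 315 lower (0.280%) in 100 genes. Of the 358, 182 had 0 counts in the control, and of the 315, 21 had 0 counts after drying. Where both libraries had counts, the smallest ratio called in the authors' deposited table was 48.5-fold on the higher and 48.8-fold on the lower side. The median GC content of these calls was 50.3% on the higher and 59.4% on the lower side, against 56.8% over all transcripts compared. A second deposited table holds the same pair in the opposite order, with the same p-value and adjusted p-value for all 137594 transcripts.

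For the named transcripts the authors' deposited table gives folds of 5.85 for c34767_g1_i1 and 14.9 for c27893_g2_i1, dried over control, each with an adjusted p of 1. Folds of 4255 for c16710_g1_i1 and 6.67 for c33399_g1_i1, control over dried, come in the authors' deposited table with adjusted p-values of 0.623 and 1. None of these 4 was thus among its calls by adjusted p-value. A status of up- or downregulated, which the table also gives, is attached to 2180 and 1766 transcripts, and 326 and 242 of these have an adjusted p of 1 in the authors' deposited table. By that status c16710_g1_i1 is downregulated after 24 h of drying, while the other named transcripts are marked as not significant.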

How the data were processed

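RNA-seq of 7 libraries of Ulva lactuca thalli, 1 per condition, was used as deposited, with groups from the treatment labels. Per the submitters' processing notes, cutadapt, Bowtie2 and DESeq were used. No version, role, assembler, counter or annotation is stated in these sources. The authors' expression table holds, per the file headers, read counts and FPKM per transcript, with length and GC content in percent. The authors' pairwise tables hold, per the file headers, both counts, a signal (the count divided by a size factor, 1.10 for the dried library and 0.913 for the control), a fold change as a ratio, and p-values before and after adjustment by a method that these sources do not name. Counts in both tables are equal for all 137594 transcripts.

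Of all transcripts, 71548 had a mean below 10 counts over the 7 libraries and were left out. Counts were scaled by trimmed means (TMM) over the 7 libraries with edgeR 4.0.16 under R 4.3.3. A prior count of 2 entered the log2 CPM values, whose differences are the log2 ratios, and 4-fold was the threshold. Plain CPM and ratios of named transcripts have no prior count. Ratios have exact Clopper-Pearson 95% intervals from both counts, shares have Wilson 95% intervals, and 3 counts are the upper limit behind a count of 0. Intervals and floors cover counting error only. The ratio code was tested on simulated counts. Named are, with 1 transcript per assembled gene and among those at least 4-fold apart under both TMM and total counts, the 2 with the largest gain and the 2 with the largest loss in CPM. The comparison, groups and lists were chosen with earlier results of these data known. Alternatives were other scalings (total counts, DESeq2 1.42.0 size factors, TMM over the 2 libraries or over 1 transcript per gene, upper quartile), prior counts of 0.5 and 10, other count filters, FPKM with a pseudocount of 0.1, removal of a cubic trend on GC content, other choices of the transcript per gene, and leaving out an on or off set. With 1 library a side, no sample could be left out.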

Additional observations from a re-analysis of the deposited data

How the results depend on the processing

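The counts of transcripts at least 4-fold higher ranged from 4479 to 9098 and those lower from 3235 to 6053 over 12 alternatives, each within 1.5 times the reported count. Over genes, 11 of 14 alternatives for the higher and 12 of 14 for the lower count stayed within 1.5 times. The exceptions were no count filter (5294 higher and 2738 lower), a mean count of 50 (1439 and 900) and, on the higher side, a prior count of 10 (1769). More or fewer genes compared is part of the construction of the first pair. A set of 303 transcripts was on in the dried libraries and after resubmergence from 24 h. It was off in the control and after resubmergence from 72 h, and 41 transcripts had the reverse pattern, c16710_g1_i1 among them. On meant at least 50 counts in each library and a share of counts at least 20-fold that of each off library. The library resubmerged from 36 h had no part in this choice. Without both sets there were 6167 higher and 4241 lower transcripts. The members of both sets were at least 4-fold apart by the way they were chosen, so the counts fell by the size of the sets. This result was fixed beforehand, and it is counted among the alternatives above. The share of counts from higher transcripts was 34.4% in the dried library and 6.48% in the control with 1 transcript per gene, and 20.2% and 2.80% with total counts. That from lower transcripts was 0.736% and 12.1% with 1 transcript per gene, and 1.53% and 14.1% with total counts. Genes whose isoforms were all at least 2-fold away on the same side made 29.4%. The GC slope ranged from -0.62 to -0.39 over 11 alternatives and kept its sign. Ratios ranged from 3.98 to 6.11 for c34767_g1_i1, from 10.1 to 15.5 for c27893_g2_i1, from 0.000192 to 0.000278 for c16710_g1_i1 and from 0.114 to 0.164 for c33399_g1_i1, dried over control. The lowest ratios of the first pair come from removing the GC trend. No paired analysis was possible because each condition has 1 library and no test was made. Depth limits genes under 0.5 CPM most.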
